A study of Mus musculus with 20 samples.

Results

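Slc24a4 encodes NCKX4, an exchanger that moves calcium out of the cell. The 10 genes described here are Slc24a4 and genes of the other transporters that clear calcium from the cytosol. They were chosen by name, as the genes whose symbol in the authors' tables is Slc24a4, Slc24a2 or Slc24a3 (potassium-dependent sodium/calcium exchangers, NCKX), Slc8a1 or Slc8a3 (sodium/calcium exchangers, NCX), Atp2b1, Atp2b2 or Atp2b4 (calcium pumps of the plasma membrane, PMCA), or Atp2a2 or Atp2a3 (pumps of the sarco/endoplasmic reticulum, SERCA). The 10 were chosen with earlier results of these data known, so their share of calls is no test of the families. Of these 10 genes, 9 were listed in at least 1 of 3 deposited comparisons and Slc8a1 was listed in none. The 8 other genes of the whole families were listed in none of those tables either. Those tables list 3696 genes in all. RNA was sequenced from aortic tissue of female mice in 4 groups of 5 libraries. KO aged and KO young mice carried the allele that the labels give both as a knockdown and as a knockout of Slc24a4 (Nckx4-/-), and WT aged and WT young mice were wild type. Aged mice were 72 to 78 weeks old and young mice 12 to 15 weeks old, and each library pooled aortas of 2 mice. How the allele was made, and in which cells it acts, is not given in the sources used here.

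A smooth muscle cell contracts when cytosolic calcium rises and relaxes when calcium is removed again. Reticulum pumps return calcium to the internal store, while plasma membrane pumps and the exchangers carry it out of the cell. NCKX exchangers use the gradients of both sodium and potassium, and NCX exchangers use that of sodium alone. The Na/K-ATPase maintains both gradients. In bulk aorta such RNA comes from smooth muscle, endothelium, adventitia, nerve and blood cells together, so fewer cells of a type and less RNA per cell cannot be told apart.

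The authors made 3 comparisons: ageing in WT aorta (aged against young), young KO against aged WT aorta, and ageing in KO aorta (aged against young). Each table lists the genes that the authors called at an adjusted p under 0.05, with a mean normalized count over both groups, a log2 fold change and its standard error (SE). Values per library were not used here, so depth per library is unknown and levels are given as group means solved from the deposited mean and fold change, with 5 libraries per group. The fold changes are shrunken towards 0, so they understate weakly measured changes. A gene absent from a table was not called there, and whether it was tested is not known. No comparison of the genotypes at the same age was analysed here. The second comparison changes genotype and age together, and in it their effects cannot be told apart. Only called genes can be used to check the tissue. Of 10 contractile smooth muscle markers, the deposited table of KO young against WT aged listed Mylk, Smtn and Synpo2, and their group means lay between 40177 and 73865.

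The start sites of the NCKX genes are shown first because Slc24a4 and Slc24a2 had the largest changes among the 10 genes, at −2.00 and −2.07 on the log2 scale in the authors' deposited tables, while Slc24a3 changed by −0.21. Each is 250 bases before to 50 bases after a RefSeq transcription start, on the GRCm38.p6 build, 5′ to 3′ along the gene; the submitters' notes name GRCm39 for the reads, so these coordinates belong to the sequences only. Capitals mark matches on either strand to the letters CACGTG (E-box, the site of clock and MYC family factors), TGANTCA (AP-1), TGACGTCA (CRE), GGGCGG (GC box, bound by SP factors) and TATAAA (a core promoter element). These motifs do not overlap one another in the sequences printed except for runs of GC boxes. Atp2b1 is added as the only other member with an E-box among the 9 members that have a start window.
Slc24a4, chr12:102128477-102128776, plus strand: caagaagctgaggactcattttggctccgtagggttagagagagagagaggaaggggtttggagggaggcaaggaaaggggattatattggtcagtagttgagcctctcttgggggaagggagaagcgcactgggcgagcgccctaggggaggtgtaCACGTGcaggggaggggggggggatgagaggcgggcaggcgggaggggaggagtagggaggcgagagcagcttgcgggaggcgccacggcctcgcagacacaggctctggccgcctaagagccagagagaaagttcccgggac
Slc24a2, chr4:87227914-87228213, minus strand: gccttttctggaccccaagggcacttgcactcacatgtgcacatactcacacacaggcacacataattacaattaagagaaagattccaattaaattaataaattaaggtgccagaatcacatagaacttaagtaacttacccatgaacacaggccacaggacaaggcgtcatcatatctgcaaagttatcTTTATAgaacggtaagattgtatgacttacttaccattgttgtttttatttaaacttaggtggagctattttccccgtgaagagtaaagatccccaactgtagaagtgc
Slc24a3, chr2:145167525-145167824, plus strand: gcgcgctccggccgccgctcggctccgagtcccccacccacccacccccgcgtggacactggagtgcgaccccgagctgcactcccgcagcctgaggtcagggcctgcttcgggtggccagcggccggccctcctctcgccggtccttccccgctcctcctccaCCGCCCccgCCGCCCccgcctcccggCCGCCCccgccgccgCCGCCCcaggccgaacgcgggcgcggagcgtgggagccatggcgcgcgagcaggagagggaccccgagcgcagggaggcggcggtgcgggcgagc
Atp2b1, chr10:98914392-98914691, plus strand: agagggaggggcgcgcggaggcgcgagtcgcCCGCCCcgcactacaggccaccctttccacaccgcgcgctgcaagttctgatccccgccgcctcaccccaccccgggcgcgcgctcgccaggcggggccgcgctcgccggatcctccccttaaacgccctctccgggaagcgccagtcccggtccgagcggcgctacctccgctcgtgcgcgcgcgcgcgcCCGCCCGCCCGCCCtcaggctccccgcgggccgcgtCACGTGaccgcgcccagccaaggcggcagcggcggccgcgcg

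The Slc24a4 window held 1 E-box, which begins 93 bases before the start, and none of the other motifs. The Slc24a2 window shown held 1 match to TATAAA, and that of another RefSeq start of the gene, not shown, held none of the motifs. The last 30 bases of the window shown stand in 2 annotated GENCODE coding transcripts of Slc24a2, and those of the other window in 0. The Slc24a3 window shown held 4 GC boxes and no E-box, and that of Atp2b1 held 4 GC boxes and 1 E-box. The window of a second Slc24a3 start, not shown, held none of the motifs. That of a second Atp2b1 start, not shown, held 3 GC boxes and no E-box. Across the 14 start windows of the 9 members in the table, 2 held an E-box, against 7.15% of 32851 windows of the same length. A GC box was found in 6 of the 14 member windows, against 35.7% of all windows, and TATAAA in 1, against 13.6%. No member window held AP-1, which 7.81% of all windows held, or CRE, which 1.79% held. The letters are a description of the windows and not of factor binding, and which start is used in aorta was not measured. Atp2a2 had no start window and is named only.

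The first comparison asked which of these genes changed with age in WT aorta. Slc24a4 had the largest change of the 10, and Slc8a3, Atp2b4 and both SERCA genes were called with it. In aged WT aorta 5 of the 10 genes were called, 4 lower and 1 higher, and of the 18 genes of the whole families the same 5. Over all 14374 tested genes 12.0% were called, 6.76% lower and 5.26% higher. The median log2 fold change was −0.45 over these 5 genes and −0.21 over all called genes.

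Slc24a4 averaged 130 normalized counts in WT aged aorta and 520 in WT young aorta. The authors' deposited table gave a log2 fold change of −2.00 (SE 0.46, adjusted p = 1.4e-05) for it. With the fold change moved by 1 SE either way, the mean in WT aged aorta lay between 99.8 and 166, and that in WT young aorta between 483 and 550. Slc24a4 was number 5 by size among 972 lower genes and was number 345 by p among 1728 called genes. It was listed in neither table that holds KO libraries. KO young against WT aged thus called no fall of Slc24a4 RNA below its WT aged level. Whether it was tested there is not known. No level in KO aorta can be given, and the label of the KO libraries was not checked by the RNA of the targeted gene. Directions drawn from KO libraries rest on that label.

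The NCKX paralogues were not called in WT ageing. Slc24a2 and Slc24a3 were absent from that table, as were Slc24a1 and Slc24a5, the NCKX genes of rod photoreceptors and pigment cells. Among NCX genes, Slc8a3 was lower, with 184 normalized counts in WT aged aorta and 318 in WT young aorta. This exchanger is best known from brain and skeletal muscle. Its log2 fold change in the authors' deposited table was −0.79 (SE 0.24, adjusted p = 7.8e-04). Slc8a1, the main exchanger of heart muscle, was not called, nor were Slc8a2 and the mitochondrial exchanger gene Slc8b1.

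The pump genes changed less and were far more abundant. Atp2b4, a plasma membrane pump found in most tissues, averaged 20264 normalized counts in WT aged aorta and 27682 in WT young aorta. The authors' deposited table gave −0.45 (SE 0.08, adjusted p = 4.7e-07), which was the smallest adjusted p among the 10 genes in this comparison. Atp2a2, the SERCA pump of cardiac and smooth muscle, averaged 29850 in WT aged aorta and 37263 in WT young aorta, with −0.32 (SE 0.08, adjusted p = 1.3e-04) in the authors' deposited table. Atp2a3, the SERCA pump of endothelial and blood cells, moved the other way, to 5354 in WT aged aorta against 4289 in WT young aorta. Its log2 fold change in the authors' deposited table was 0.32 (SE 0.13, adjusted p = 0.0156). The summed mean of both SERCA genes was 35205 in WT aged aorta and 41552 in WT young aorta. Atp2b1, Atp2b2 and Atp2b3 were not called, and neither were Atp2a1, Atp2c1 and Atp2c2.

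**Figure D1:**
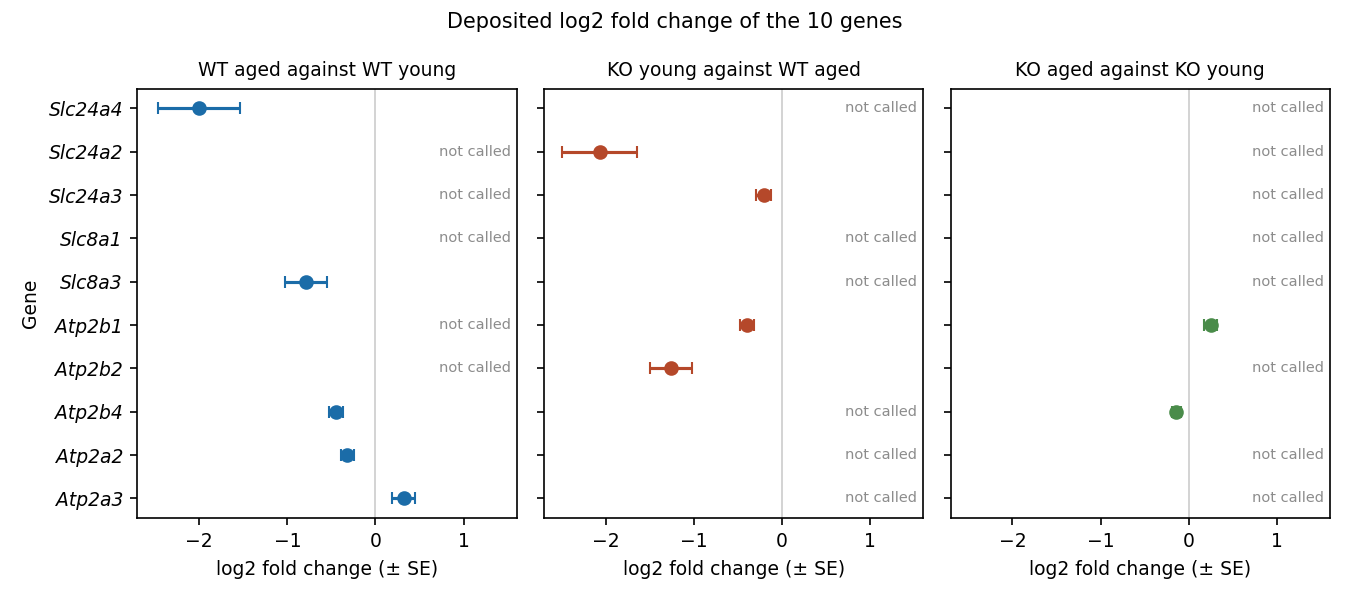
Deposited log2 fold changes (x axis, log2 scale, bars ± SE) of the 10 genes (rows) in each of the 3 comparisons, positive where the group named first is higher. Slc24a4 at −2.00 in WT ageing and Slc24a2 at −2.07 in KO young against WT aged lie farthest from 0, and no gene is called in all 3 panels.

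Markers of other cell types moved beside these genes. Of 18 striated muscle markers 3 were called in WT ageing, all lower, where 12.0% of all tested genes were called and 6.76% were lower. Their summed mean was 292 normalized counts in WT aged aorta and 454 in WT young aorta. Most of the WT aged sum was Myh6, with 209 in WT aged aorta and 222 in WT young aorta (−0.09, SE 0.19). Tnnt1 was at −0.82 (SE 0.39) and Actc1, the cardiac actin gene, at −1.99 (SE 0.40) in the authors' deposited table. Of 8 fibroblast markers 5 were called, all lower, with a summed mean of 85050 in WT aged aorta and 155990 in WT young aorta. Of these sums Col1a1 alone was 71188 in WT aged aorta and 137526 in WT young aorta (−0.95, SE 0.34). The others, Sfrp2, Fap, Dpt and Pi16, lay between −0.62 and −0.28 in the authors' deposited table. Beside Atp2a3, 1 of 12 endothelial markers was called, Esam at −0.32 (SE 0.13) in the authors' deposited table, while 0 of 7 leukocyte and 0 of 5 platelet markers were called. Other markers were higher: 1 of 10 adipocyte markers, Cfd, averaged 8294 in WT aged aorta and 4476 in WT young aorta, and 1 of 10 contractile smooth muscle markers, Des, averaged 2610 in WT aged aorta and 1992 in WT young aorta. The part of these cell types in the changes of the transporter genes was not tested.

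Likeness to Slc24a4 was the distance in log2 fold change among genes that, over the 3 comparisons, WT ageing alone called. Actc1 was nearest, at a distance of 0.01. The next 4 of 1031 candidates differed by 0.31 to 0.36. In the authors' deposited table Kcnc4, a voltage-gated potassium channel gene, was at −1.69 (SE 0.79) and Aplp1, an amyloid precursor-like protein gene, at −1.68 (SE 0.15). Cilp2, which encodes a cartilage matrix protein, and Adamts17, a metallopeptidase gene, were both at −1.64 in the authors' deposited table.

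The second comparison asked how young aorta of the KO genotype stands to aged aorta of the WT. Every called member was lower in KO young aorta. Of the 10 genes 4 were called, 4 lower and 0 higher, and of the 18 genes of the whole families the same 4. The background over 14661 tested genes was 7.78% called, 3.70% lower and 4.08% higher. The median log2 fold change was −0.83 over these 4 genes and 0.20 over all called genes. This comparison shares the WT aged libraries with WT ageing.

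Slc24a2, an NCKX gene best known from neurons and cone photoreceptors, averaged 33.0 normalized counts in KO young aorta and 139 in WT aged aorta. The authors' deposited table gave, after a change of sign, −2.07 (SE 0.43, adjusted p = 7.8e-06). That was number 8 by size among 543 lower genes. Slc24a3, the NCKX gene that is abundant in smooth muscle and brain, averaged 3339 in KO young aorta and 3862 in WT aged aorta, with −0.21 (SE 0.08, adjusted p = 0.0285) in the authors' deposited table. Both paralogues were thus lower in KO young aorta, by very different amounts, and Slc24a1, Slc24a4 and Slc24a5 were not called. The Slc24a3 call did not hold at an adjusted p under 0.01.

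Of the plasma membrane pumps, Atp2b2 had the larger change. This pump, best known from neurons and the hair cells of the inner ear, averaged 142 normalized counts in KO young aorta and 341 in WT aged aorta. The authors' deposited table gave −1.26 (SE 0.24, adjusted p = 2.8e-07). Atp2b1, the pump expressed in nearly every cell and linked to blood pressure in humans, averaged 3784 in KO young aorta and 4993 in WT aged aorta, with −0.40 (SE 0.08, adjusted p = 6.1e-06) in the authors' deposited table. No NCX or SERCA gene was called. Among 18 called genes with a mean within 1.5-fold of the 33557 that Atp2a2 had in WT ageing, absolute log2 fold changes ran from 0.15 to 0.73. That range holds called genes only, and the SE of Atp2a2 in this comparison is unknown. It therefore cannot show whether Atp2a2 changed here.

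**Figure D2:**
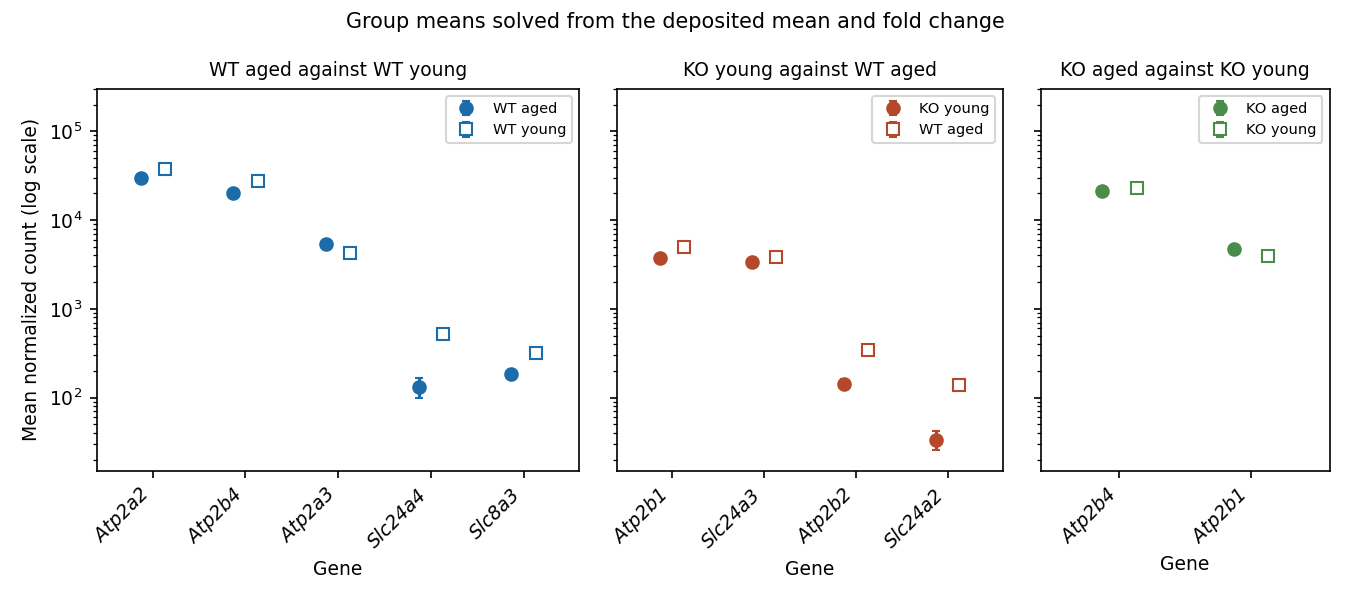
Group means of the called genes (y axis, mean normalized count, log scale; filled circles, the group named first in each panel title; open squares, the other group), with bars for the fold change moved by 1 SE either way. All 4 genes of the middle panel have the lower mean in KO young aorta, from 33.0 against 139 for Slc24a2 to 3784 against 4993 for Atp2b1.

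Of 15 neuron markers 1 was called in this comparison, where 7.78% of all tested genes were. It was Snap25, a synaptic vesicle fusion gene, at 31.6 normalized counts in KO young aorta and 140 in WT aged aorta (−2.15, SE 0.44, in the authors' deposited table). Th and Dbh, which define sympathetic neurons, were not called, and 0 of 7 Schwann cell markers were called. Of 12 endothelial markers 5 were called, 2 higher and 3 lower. Egfl7 was at 0.48 and Kdr at 0.36, and Nos3 was at −0.71, Vwf at −0.62 and Tek at −0.37 in the authors' deposited table. Against the direction of the 4 members, the fibroblast markers Fap and Dpt, 2 of 8, were higher at 0.46 (SE 0.14) and 0.20 (SE 0.08) in the authors' deposited table, and 1 of 18 striated muscle markers, Actn2, averaged 611 in KO young aorta and 381 in WT aged aorta. The smooth muscle markers gave Synpo2 at 0.27 and both Mylk and Smtn at −0.20 in the authors' deposited table. The part of these cell types in the members' values was not tested.

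The genes nearest in size to Slc24a2 and Atp2b2 were looked up after these values had been seen. Among 309 genes with a mean of at least 50 that this comparison called and both ageing comparisons did not, Klk10, a kallikrein-related peptidase gene, and Snap25 lay nearest to Slc24a2, with differences in log2 fold change of 0.02 and 0.08. Nrcam, a neuronal cell adhesion gene, and Hpca, a neuronal calcium sensor gene, followed at differences of 0.23 and 0.49. Nearest to Atp2b2 were Rasgrp1, Clvs2 and Rasgrf1, at −1.31, −1.20 and −1.19 in the authors' deposited table.

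**Figure D3:**
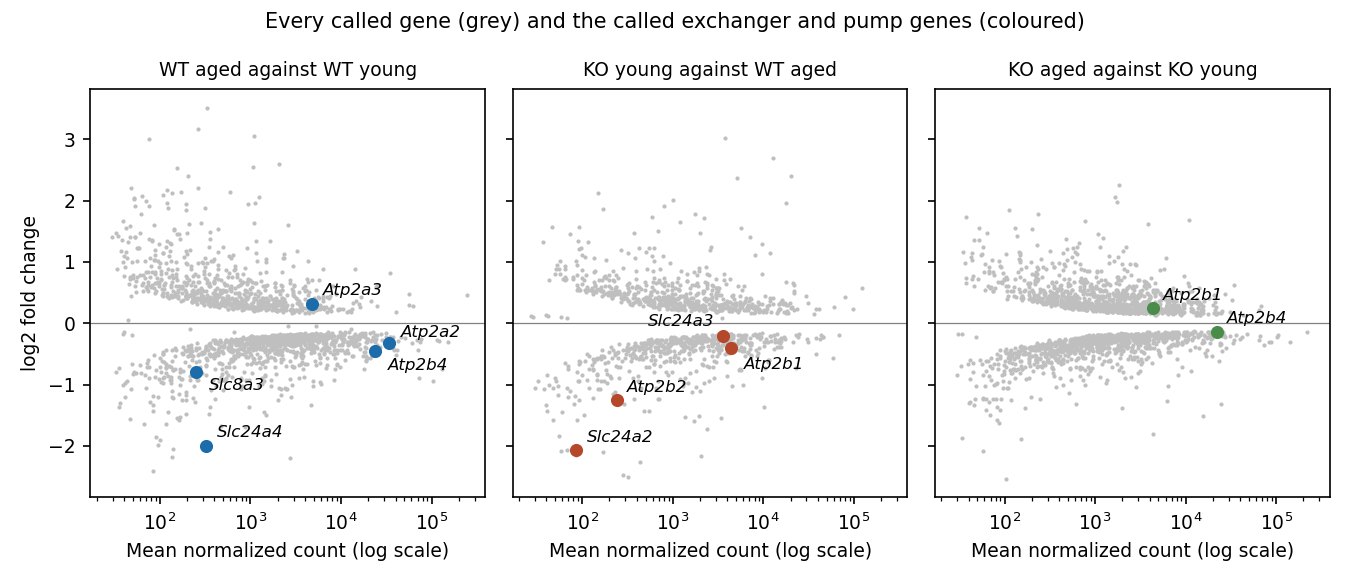
Every called gene (grey) and the called exchanger and pump genes (coloured) by mean normalized count (x axis, log scale) and log2 fold change (y axis) in each comparison. Slc24a4 and Slc24a2 lie at the low edge of the cloud, at −2.00 and −2.07, while the abundant pump genes lie between −0.45 and 0.32.

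The third comparison asked which of the genes changed with age in KO aorta. It called 2 of the 10 genes, 1 higher and 1 lower, both plasma membrane pumps, and the same 2 of the 18 genes of the whole families. The background over 14477 tested genes was 14.4% called, 7.71% higher and 6.68% lower. Atp2b1 averaged 4734 normalized counts in KO aged aorta and 3981 in KO young aorta, with 0.25 (SE 0.07, adjusted p = 0.00286) in the authors' deposited table. Atp2b4 averaged 20992 in KO aged aorta and 23131 in KO young aorta, with −0.14 (SE 0.05, adjusted p = 0.0436) in the authors' deposited table. That was number 959 by size among 967 lower genes. No NCKX, NCX or SERCA gene was called. Beside these calls, 3 of 8 fibroblast markers were lower, Fap at −0.49, Col1a1 at −0.35 and Sfrp2 at −0.29 in the authors' deposited table. Of 10 adipocyte markers 2 were higher, with a summed mean of 10905 in KO aged aorta and 5412 in KO young aorta. Of 12 endothelial markers 3 were called, with Cldn5 at −0.67, Egfl7 at −0.60 and Nos3 at 0.50 in the authors' deposited table. Of 10 contractile smooth muscle markers 3 were called, with Lmod1 at −0.32, Synpo2 at −0.21 and Myocd at 0.58 in the authors' deposited table. Actn2, 1 of 18 striated muscle markers, averaged 1108 in KO aged aorta and 615 in KO young aorta, and S100b, 1 of 7 Schwann cell markers, averaged 225 in KO aged aorta and 175 in KO young aorta. The part of these cell types was not tested.

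Atp2b4 was the one member called in both ageing comparisons, and these share no libraries. Its log2 fold changes in the authors' deposited tables were −0.14 (SE 0.05) in KO ageing and −0.45 (SE 0.08) in WT ageing. The difference, KO minus WT, was 0.31 (SE 0.10), from a two-sided normal test on the deposited estimates with Benjamini-Hochberg adjustment over 438 genes called in both (adjusted p = 0.00678). Of those 438 genes, 29.9% passed the same test. With Bonferroni adjustment the p of this difference was 0.664, and the KO ageing call of Atp2b4 did not hold at an adjusted p under 0.01. These 438 genes were 21.0% of the genes called in KO ageing and 25.3% of those called in WT ageing. Of the 5 members called in WT ageing, Atp2b4 was called in KO ageing too, a share near that over all called genes. For Slc24a4, Slc8a3, Atp2a2 and Atp2a3, whether the ageing effects differed between genotypes was not tested, since that needs a value in both. Among 27 genes called in KO ageing with a mean within 1.5-fold of that of Atp2a2 in WT ageing, absolute log2 fold changes ran from 0.14 to 1.32. That range too holds called genes only and cannot show whether Atp2a2 changed in KO ageing.

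Atp2b1 was listed in both tables with KO young libraries. Its mean in KO young aorta was 3784 in the comparison with WT aged aorta and 3981 in that with KO aged aorta. The tables were normalized separately, and over the 656 genes listed in both the KO young means differed by a median of −0.07 on the log2 scale. KO young aorta was the lower group in both. The comparisons share those libraries.

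Levels of different genes were compared per kilobase of the longest annotated coding transcript, in WT aged aorta, the group in which all 9 called members have a value. Over the 398 genes that WT ageing and KO young against WT aged both list, the WT aged means of a gene scattered by 0.03 on the log2 scale (median absolute deviation). On this scale Atp2a2 came first with 6654 normalized counts per kilobase, followed by Atp2b4 with 1728, Atp2a3 with 1162, Slc24a3 with 954 and Atp2b1 with 700. Atp2b2 with 38.4, Slc8a3 with 37.3, Slc24a4 with 29.1 and Slc24a2 with 13.2 formed a lower tier. Of the 3 NCKX genes with a value, Slc24a3 had the highest level in WT aged aorta on this scale. The levels join tables that were normalized separately. No spread over libraries is known for these levels, and the order of neighbours such as Atp2b2 and Slc8a3 was not tested.

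Genes that work with these transporters were read from 6 lists of 62 genes. In WT ageing 12 were called, 1 higher and 11 lower. Of all tested genes 12.0% were called there, 5.26% higher and 6.76% lower. In KO young against WT aged 8 were called, 3 higher and 5 lower, beside 7.78% of all tested genes. In KO ageing 6 were called, 3 higher and 3 lower, a smaller share than the 14.4% of all tested genes. None of the 9 SERCA regulators, phospholamban (Pln) and sarcolipin (Sln) among them, was called in any comparison.

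In WT ageing, where 12.0% of all tested genes were called and 6.76% were lower, 3 of 8 partners of the exchangers and plasma membrane pumps were called, all lower. Ank2, the ankyrin that anchors NCX and the Na/K-ATPase in heart muscle, averaged 13126 normalized counts in WT aged aorta and 16049 in WT young aorta (−0.29, SE 0.06, in the authors' deposited table). Nptn, whose product neuroplastin is a subunit of plasma membrane pumps, was at −0.25 (SE 0.08), and Fxyd1, which encodes phospholemman, at −0.20 (SE 0.07) in the authors' deposited table. Of genes of the Na/K-ATPase, the beta subunit gene Atp1b2 was lower at −0.53 (SE 0.11) and the regulator gene Fxyd6 higher at 0.39 (SE 0.14) in the authors' deposited table. Calcium-binding proteins of the reticulum gave 5 of 13 called, all lower, with Rcn2 at −0.33 (SE 0.09) and Casq1, the skeletal muscle calsequestrin, at −0.47 (SE 0.37) in the authors' deposited table. The others, Rcn1, Rcn3 and Calu, lay between −0.25 and −0.18. Rcan2, a calcineurin inhibitor, was at −0.18 (SE 0.06) in the authors' deposited table.

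In KO young against WT aged aorta, Ank2 was higher, at 16377 normalized counts in KO young aorta and 13210 in WT aged aorta (0.31, SE 0.06, in the authors' deposited table). Hspa5, a chaperone gene of the reticulum, was at −0.30 (SE 0.07) in the authors' deposited table. Rcan1, which calcineurin and NFAT induce, was higher at 0.43 (SE 0.09), and Nfatc4, an NFAT factor, at 0.29 (SE 0.09) in the authors' deposited table. Mcur1 (−0.30, SE 0.08) and Letm1 (−0.21, SE 0.08), which act in mitochondrial calcium handling, were lower in the authors' deposited table. In KO ageing the same pair was higher, at 0.31 (SE 0.07) and 0.27 (SE 0.08) in the authors' deposited table, and Nfatc4 was lower at −0.41 (SE 0.09), as was the calcineurin subunit gene Ppp3ca at −0.20, with KO young libraries shared between both comparisons. Atp1b2 was lower (−0.27, SE 0.12) and Fxyd6 higher (0.30, SE 0.13) in KO ageing too in the authors' deposited table.

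**Figure D4:**
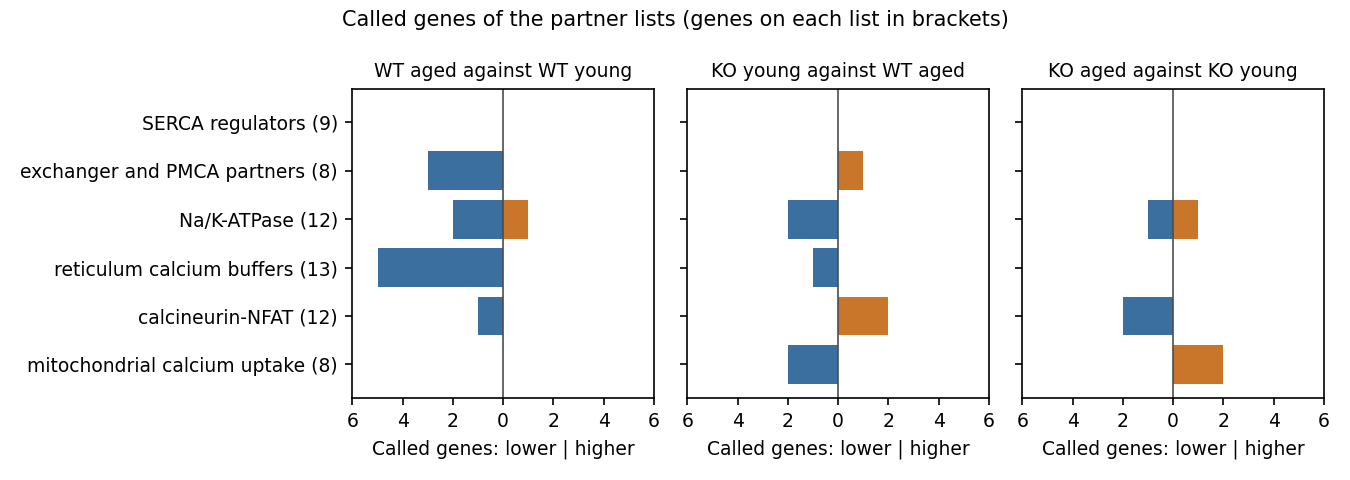
Number of called genes of 6 partner lists (rows, with genes per list in brackets) in each comparison, lower genes left of 0 in blue and higher genes right of 0 in orange. WT ageing shows 11 lower genes and 1 higher gene of 62, where 6.76% of all tested genes were lower and 5.26% higher. No SERCA regulator is called in any panel.

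Genes around the targeted locus were read as well: the 10 protein-coding genes nearest to Slc24a4 on each side, in RefSeq order on chromosome 12. Of these 20 genes, 3 were called in KO young against WT aged, where 7.78% of all tested genes were. In KO ageing 5 were called, beside 14.4% of all tested genes, and in WT ageing 2, beside 12.0%. Ccdc88c was called in all 3, at 0.50 (SE 0.09) in KO young against WT aged, −0.36 (SE 0.09) in KO ageing and −1.08 (SE 0.12) in WT ageing in the authors' deposited tables. Fbln5, an elastic fibre gene, was at 0.50 (SE 0.08) in KO young against WT aged and −0.35 (SE 0.09) in KO ageing, and Ndufb1, a respiratory chain gene, was at −0.28 (SE 0.10) in KO young against WT aged, in the authors' deposited tables. Rin3, the next gene after Slc24a4, averaged 2172 normalized counts in KO aged aorta and 1291 in KO young aorta (0.75, SE 0.10, in the authors' deposited table). Tc2n was at −0.74 (SE 0.32) in KO ageing in the authors' deposited table. Whether these calls come from the allele's surroundings was not tested.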

How the data were processed

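The 20 mouse aorta libraries were made with a stranded kit for low input, per the labels' protocols. The submitters' processing notes name DESeq2 1.42.1, STAR 2.7.11b, MultiQC 1.25.1, Subread 2.0.8 with featureCounts, and build GRCm39, without roles or settings. For each called gene the deposited tables give, per the file headers, a log2 fold change with its SE, a p-value before and after adjustment, and a mean normalized count. The authors deposited that mean as 1 signal value per gene and comparison, so depth is unknown and no model was refitted. Adjusted p-values are the authors', from tests across all genes.

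How many genes were tested follows from adjusted over raw p. Deposited fold changes divided by their SE were a median of 0.858, 0.841 and 0.865 of the z that p implies, as shrinkage towards 0 gives. Signs were taken from the values: group means solved for a group shared by 2 tables had to match, which gave a median absolute deviation of 0.0286 and 0.0353 on the log2 scale, against at least 0.185 and 0.115 for other sign choices. The sign of KO young against WT aged was turned.

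Named genes are the 10 members, the rest of their families, up to 4 called genes per partner list and comparison, called neighbours among 10 protein-coding genes per side of Slc24a4, and the 5 genes nearest to Slc24a4 by log2 fold change with a mean of at least 50, leaving out predicted and clone-named genes. Some genes that this rule names are not reported here. Members and lists were chosen with earlier results of these data known. Scripts were tested on simulated data. Promoter windows are from RefSeq (GRCm38.p6), transcript lengths from GENCODE. Scripts ran on matplotlib 3.10.9, SciPy 1.17.1, pandas 2.3.3 and NumPy 2.4.6 under Python 3.11.15.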

Additional observations from a re-analysis of the deposited data

Results flagged for a closer look

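Over the genes called in both ageing comparisons, the ageing effect on Atp2b4 differed between genotypes by a two-sided normal test with Benjamini-Hochberg adjustment. The KO minus WT difference in log2 fold change was 0.31, from −0.14 in KO ageing and −0.45 in WT ageing. Of the 438 genes called in both, 131 passed the same test. With Bonferroni adjustment the p of Atp2b4 was 0.664, and its KO ageing call did not hold at an adjusted p under 0.01. Atp2b4 was lower with age in both genotypes.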

How the results depend on the processing

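Stricter call rules left fewer members called. In WT ageing, Bonferroni adjustment kept 2 of the 5 calls (Slc24a4 and Atp2b4), with 3.02% of all tested genes called, and asking for 0.5 or more in absolute log2 fold change kept 2 (Slc24a4 and Slc8a3), with 4.44% called. In KO young against WT aged, the fold change rule kept 2 of 4 (Slc24a2 and Atp2b2), with 2.80% called. An adjusted p under 0.01 and Bonferroni adjustment each kept 3 of these 4, without Slc24a3, with 4.77% and 2.13% called. In KO ageing, an adjusted p under 0.01 kept 1 of 2 (Atp2b1), with 8.43% called, and the Bonferroni and fold change rules kept 0, with 3.17% and 3.67% called. A mean of at least 50 removed no member. By Bonferroni adjustment 62 genes differed between the ageing comparisons, and the p of Atp2b4 became 0.664; with the SE implied by the p-value 147 genes differed and that of Atp2b4 was 0.00336. No paired analysis was possible because no values per library were used, although the labels number the libraries of each group; for the same reason no library was left out in turn. Depth per library is unknown, so no limit from depth can be given.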
